A study of Mus musculus with 12 samples.

Results

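The genes described here are 10 genes of transcription elongation: the histone methyltransferase gene Dot1l, the super elongation complex genes Ell, Ell2, Aff1, Aff4 and Mllt3, the kinase gene Cdk9, its cyclin genes Ccnt1 and Ccnt2, and the inhibitor gene Hexim1. They were chosen by gene symbol among 24704 genes with a symbol on the arrays, and each of the 10 has 1 probe set. The list of symbols was selected on measured levels of these 12 arrays, without a record of the contrast behind it. All values of the 10 genes are therefore a description: no p-value of theirs is printed, and counts of them past a threshold of the fit are not a test.

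Affymetrix arrays measured RNA from isolated ventricular myocytes, the contractile cells of the lower heart chambers, which enzymes had freed from the perfused hearts of adult mice. Of the 6 mice, 3 were wild type (WT) and 3 lacked both CaMKIIδ and CaMKIIγ (CaMKII DKO), the forms of the calcium/calmodulin-dependent kinase II that the heart expresses most. Each mouse supplied an untreated array and an array of cells kept for 24 h in 100 nM isoprenaline (Iso), which activates beta-adrenergic receptors. That makes 4 groups of 3 arrays: untreated WT, Iso-treated WT, untreated DKO and Iso-treated DKO. All 4 groups share the isolation and the time in culture, and the labels used here give neither how the CaMKII genes were deleted nor the mice's exact age. The study asked whether phosphorylation of histone H3 at serine 28 under Iso goes along with changes in expression, and these arrays compare expression with and without the kinase. Values are log2 RMA signals, a difference of 1 meaning a factor of 2, and errors of differences are standard errors (SE) of a limma fit over all 12 arrays.

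After RNA polymerase II starts a gene, it often pauses shortly downstream. P-TEFb, a pair of the kinase Cdk9 and a cyclin T, phosphorylates the polymerase and its pausing factors and so releases it. Hexim1, together with the 7SK RNA, holds P-TEFb inactive, whereas the super elongation complex, built on Aff1 or Aff4 with Ell or Ell2 and the reader protein Mllt3, brings it to genes. Dot1l methylates lysine 79 of histone H3 on transcribed genes and shares Mllt3 as a partner. In the heart, P-TEFb activity is known to go with myocyte growth, and loss of Dot1l in mouse myocytes is known to lead to dilated hearts with less dystrophin.

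The arrays carried the markers of ventricular myocytes: 10 of 10 lay above the median of every array, and the log2 of their summed linear signal ran from 16.08 to 16.29. So did all 10 endothelial markers, 7 of 9 fibroblast markers, of which Dcn read 10.12 to 11.01 and Tcf21 exceeded the median on 1 array, and 7 of 9 macrophage and leukocyte markers, of which Cd74 read 7.23 to 8.55 and Ptprc exceeded it on none. Camk2g lay lower on all 6 DKO arrays (3.57 to 4.20) than on all 6 WT arrays (4.78 to 5.80), and passed limma's test (over both treatments -1.42, SE 0.14, adjusted p = 0.000398). Camk2d did not (-0.32, SE 0.12, adjusted p = 0.326), and the labels do not say which exons of either gene were removed. Untreated DKO array 3 stood apart, with a median correlation with the other arrays of 0.956 across genes, against 0.984 to 0.988 for the others. Where leaving it out turned a sign or moved a value much, that value is given too. Of the 24704 genes, 13737 were bright enough to be tested, among them 10 of the 10 described here. To be tested, a gene had to exceed the array median on at least 3 arrays.

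Because Dot1l, Ell2 and Aff4 had the largest Iso differences of the 10 genes as a mean over both genotypes, their promoters are shown beside that of Ell, the paralogue of Ell2 whose Iso difference was near 0. Each window runs from 250 bases before to 50 bases after the start of the gene in RefSeq, on GRCm38.p6, and is written 5′ to 3′ along the gene. Capitals mark the letters TGACG or their reverse complement, the shorter form of the cAMP response element that factors of the CREB family bind.
Dot1l, GRCm38.p6 chr10:80754953-80755252, + strand: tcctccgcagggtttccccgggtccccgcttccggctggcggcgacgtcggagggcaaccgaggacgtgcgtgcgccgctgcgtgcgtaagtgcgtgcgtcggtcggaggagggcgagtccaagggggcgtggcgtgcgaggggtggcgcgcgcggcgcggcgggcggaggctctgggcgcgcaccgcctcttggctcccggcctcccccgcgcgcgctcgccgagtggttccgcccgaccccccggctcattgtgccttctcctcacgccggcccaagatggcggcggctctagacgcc
Ell2, GRCm38.p6 chr13:75707234-75707533, + strand: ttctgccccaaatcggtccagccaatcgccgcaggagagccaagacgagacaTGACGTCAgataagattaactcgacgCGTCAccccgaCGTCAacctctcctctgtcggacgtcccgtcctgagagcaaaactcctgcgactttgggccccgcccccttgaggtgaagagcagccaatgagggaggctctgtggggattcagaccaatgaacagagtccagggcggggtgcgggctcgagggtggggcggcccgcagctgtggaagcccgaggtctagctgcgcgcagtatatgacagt
Aff4, GRCm38.p6 chr11:53350517-53350816, + strand: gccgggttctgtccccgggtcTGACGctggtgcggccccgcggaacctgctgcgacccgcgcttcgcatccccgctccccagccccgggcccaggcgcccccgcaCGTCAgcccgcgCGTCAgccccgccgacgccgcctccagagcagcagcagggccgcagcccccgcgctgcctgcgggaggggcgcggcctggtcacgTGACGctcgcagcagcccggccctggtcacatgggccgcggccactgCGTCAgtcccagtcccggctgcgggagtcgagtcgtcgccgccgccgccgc
Ell, GRCm38.p6 chr8:70539425-70539724, + strand: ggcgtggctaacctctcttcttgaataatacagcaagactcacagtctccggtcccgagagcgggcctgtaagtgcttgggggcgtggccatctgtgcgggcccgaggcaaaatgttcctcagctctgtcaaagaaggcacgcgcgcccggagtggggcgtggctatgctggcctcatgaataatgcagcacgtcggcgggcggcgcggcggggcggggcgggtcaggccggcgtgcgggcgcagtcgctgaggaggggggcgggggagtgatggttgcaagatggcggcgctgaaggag
The Ell2 window holds 4 short sites, of which 2 overlap as the full palindrome TGACGTCA that begins at position -198. The Aff4 window holds 5 short sites and no full palindrome. The windows of Dot1l and Ell hold neither. Among 32851 promoter windows of the same length, 20.8% hold at least 1 short site on either strand, 0.231% hold at least 4, 0.0548% at least 5, and 1.79% hold the full palindrome. Of the 12 windows of the 10 genes, 4 hold a short site (those of Ell2, Aff4, Ccnt1 and 1 of the 2 windows of Aff1), and only that of Ell2 holds the palindrome. The GC box GGGCGG was found in 10 of the 12 windows, against 35.7% of all windows, and the letters TATAAA in none of the 12, against 13.6%. G and C made up 44.7% to 79.0% of the 12 windows, where the median of all windows was 52.7%. Motif shares among windows of like G and C content were not compared. These matches describe letters in a window. They are not binding sites measured here.

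Dot1l, the gene of the enzyme that methylates lysine 79 of histone H3, was higher with Iso in every mouse. WT cells gave 5.51, 5.69 and 5.62 untreated and 5.96, 6.44 and 6.13 under Iso. DKO cells gave 5.47, 5.53 and 5.78 untreated and 6.34, 6.45 and 6.24 under Iso. All 6 treated arrays thus lay above all 6 untreated arrays, and the 4 groups fell into 2 levels set by treatment. Within a mouse the difference was 0.45, 0.75 and 0.51 in WT and 0.86, 0.92 and 0.47 in DKO. The group difference was 0.57 (SE 0.14, n = 3 arrays per group) in WT, a factor of 1.49, and 0.75 (SE 0.14) in DKO, a factor of 1.68. Over both genotypes the mean was 0.66 (SE 0.10), rank 53 from the top among the 13737 genes. Without Iso the genotypes differed by -0.01 (SE 0.14), with Iso by 0.17 (SE 0.14), and the arrays of the genotypes overlapped in both cases.

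Ell2, an elongation factor that raises the speed of RNA polymerase II, had the largest mean Iso difference of the 10 genes. Its 3 WT mice gave 6.76, 7.02 and 7.02 untreated and 7.68, 7.36 and 7.19 under Iso. The DKO mice gave 6.43, 6.54 and 6.23 untreated, and 7.27, 7.62 and 7.17 under Iso. The untreated DKO arrays were the lowest 3 of the 12, the untreated WT arrays came next, and the treated arrays of both genotypes overlapped above them. The difference with Iso was 0.48 (SE 0.16) in WT and 0.95 (SE 0.16) in DKO, factors of 1.39 and 1.94, and it ranked 34 from the top as a mean over both genotypes (0.71, SE 0.12). Within mice it was 0.92, 0.33 and 0.17 in WT and 0.84, 1.08 and 0.94 in DKO. The Iso difference was thus larger in DKO by 0.48 (SE 0.23). Without Iso, DKO minus WT was -0.53 (SE 0.16), and the arrays did not overlap. With Iso it was -0.06 (SE 0.16), and they did. Without untreated DKO array 3 these values were 0.39 (SE 0.23) for the difference between genotypes in Iso effect and -0.45 (SE 0.17) for DKO minus WT without Iso.

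Ell, the paralogue of Ell2 and founding member of its family, did not share this pattern. WT arrays spanned 3.92 to 4.43 untreated and 4.03 to 4.41 under Iso, DKO arrays 4.08 to 4.60 untreated and 4.02 to 4.51 under Iso. All 4 groups overlapped. With Iso, Ell differed by 0.01 (SE 0.19) in WT and -0.10 (SE 0.19) in DKO, and 3 of the 6 mice were higher. The DKO value was 0.04 (SE 0.19) without untreated DKO array 3.

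**Figure D1:**
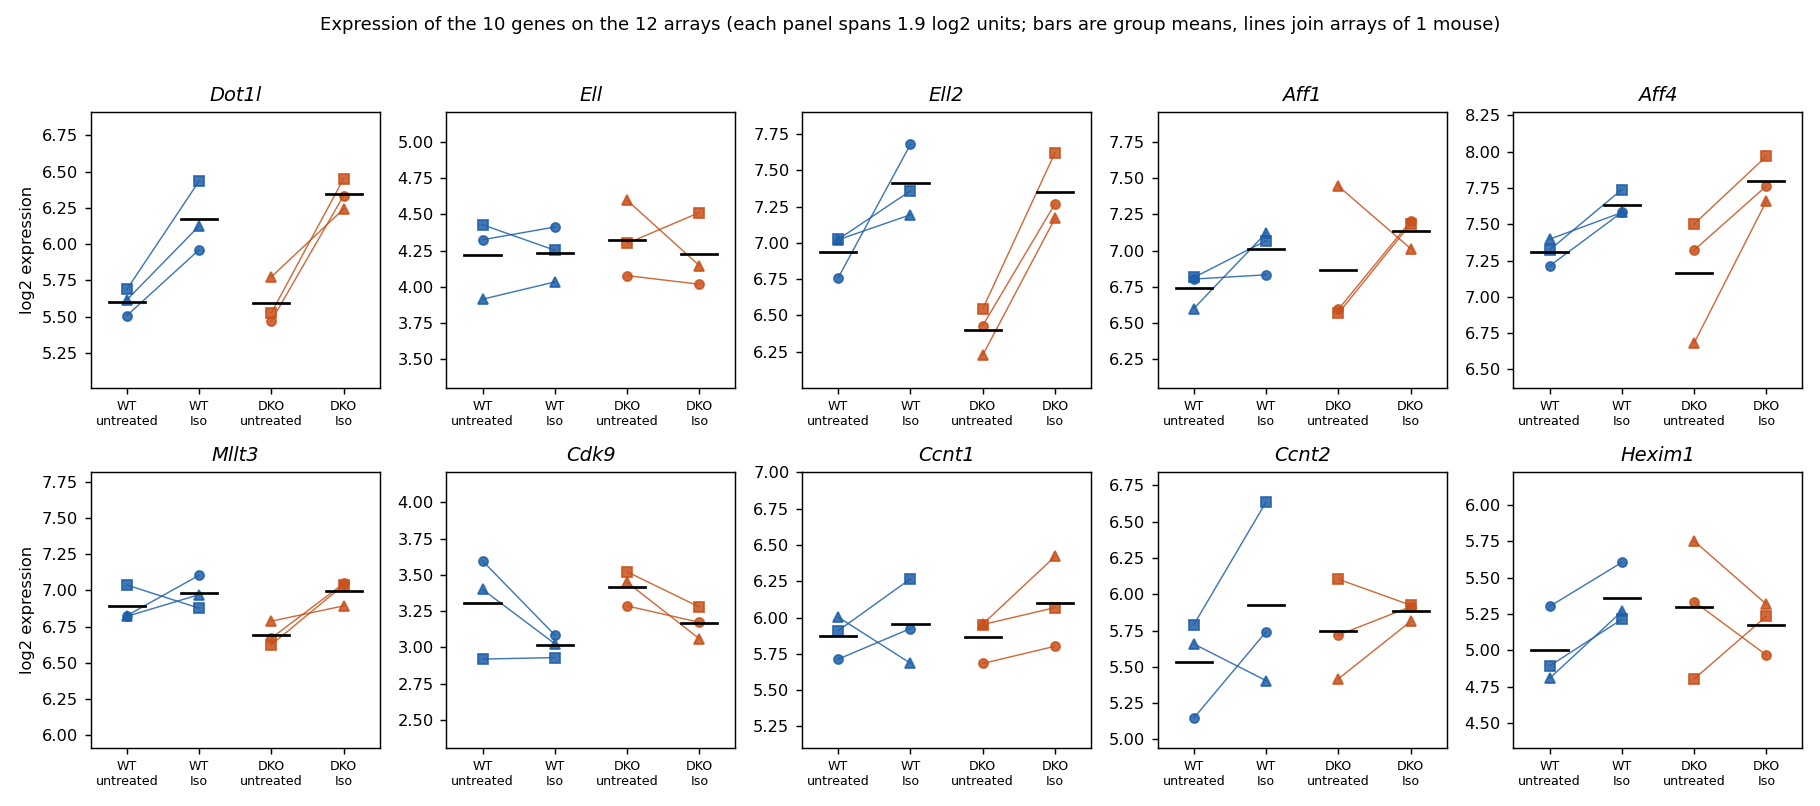
Log2 expression (vertical axis) of the 10 genes on the 12 arrays, in 4 groups of 3 (horizontal axis); blue is WT and orange DKO, lines join the 2 arrays of a mouse, marker shapes are mouse numbers and black bars are group means. In Dot1l, Ell2 and Aff4 every line climbs and no treated array lies below an untreated array; Ell, at 3.92 to 4.60, shows no such separation.

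Of the scaffold genes, Aff4 came closest to Dot1l and Ell2. Aff4 is the scaffold most often found in the super elongation complex. Levels in WT were 7.21, 7.32 and 7.40 untreated and 7.58, 7.74 and 7.58 under Iso. Levels in DKO were 7.32, 7.50 and 6.68 untreated and 7.76, 7.97 and 7.66 under Iso. All 6 treated arrays again lay above all 6 untreated arrays, and the within-mouse differences ran from 0.18 to 0.98. The difference was 0.32 (SE 0.18) in WT and 0.63 (SE 0.18) in DKO. The largest within-mouse value came from DKO mouse 3, whose untreated array stands apart, and without that array the DKO difference was 0.39 (SE 0.13).

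Aff1, the other scaffold, stood in WT at 6.80, 6.82 and 6.60 untreated and at 6.83, 7.07 and 7.12 under Iso, with no overlap. In DKO it stood at 6.60, 6.57 and 7.45 untreated and at 7.20, 7.19 and 7.01 under Iso. Untreated DKO array 3 was the highest of all 12 arrays for this gene, and the DKO groups overlapped through it alone. The Iso difference was 0.27 (SE 0.20) in WT and 0.26 (SE 0.20) in DKO, the latter 0.55 (SE 0.13) without that array. Mllt3, the subunit that reads acetylated and crotonylated histones, lay between 6.63 and 7.10 on all arrays. It was higher with Iso by 0.09 (SE 0.12) in WT, where the groups overlapped, and by 0.30 (SE 0.12) in DKO, where they did not. Like Ell2 it was lower in DKO than in WT without Iso (-0.20, SE 0.12), with no overlap of the arrays, while with Iso DKO minus WT was 0.01 (SE 0.12).

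Cdk9, the kinase of P-TEFb, was the 1 gene of the 10 whose Iso difference was below 0 in both genotypes. WT levels were 3.60, 2.92 and 3.40 untreated and 3.09, 2.93 and 3.03 under Iso. DKO levels were 3.29, 3.52 and 3.45 untreated and 3.17, 3.28 and 3.06 under Iso. The median of each array was 3.32, and only 4 of the 12 arrays, all untreated, lay above it for Cdk9. The Iso difference was -0.29 (SE 0.16) in WT and -0.25 (SE 0.16) in DKO, and 5 of 6 mice were lower. Untreated and treated arrays overlapped in WT and not in DKO. Because Cdk9 entered the test through untreated arrays alone, the direction was partly fixed by the filter.

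The cyclin genes Ccnt1 and Ccnt2, which encode the partners of Cdk9, varied more between mice than between treatments. Ccnt1 read 5.68 to 6.42 over the 12 arrays and differed with Iso by 0.08 (SE 0.18) in WT and 0.23 (SE 0.18) in DKO, higher in 5 of 6 mice. Ccnt2 ran from 5.15 on untreated WT array 1 to 6.64 on Iso-treated WT array 2, and differed by 0.40 (SE 0.28) in WT and 0.14 (SE 0.28) in DKO, higher in 4 of 6 mice. The DKO difference of Ccnt2 turned to -0.03 (SE 0.29) without untreated DKO array 3. In both genes treated and untreated arrays overlapped in each genotype. Hexim1, the inhibitor of P-TEFb, was higher with Iso in all 3 WT mice (0.30, 0.32 and 0.46), while in DKO mice it differed by -0.37, 0.43 and -0.44. Its group difference was 0.36 (SE 0.22) in WT and -0.12 (SE 0.22) in DKO, and the untreated and treated arrays overlapped in both. Without untreated DKO array 3, on which Hexim1 read 5.75, the highest of the 12, the DKO difference was 0.10 (SE 0.20).

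**Figure D2:**
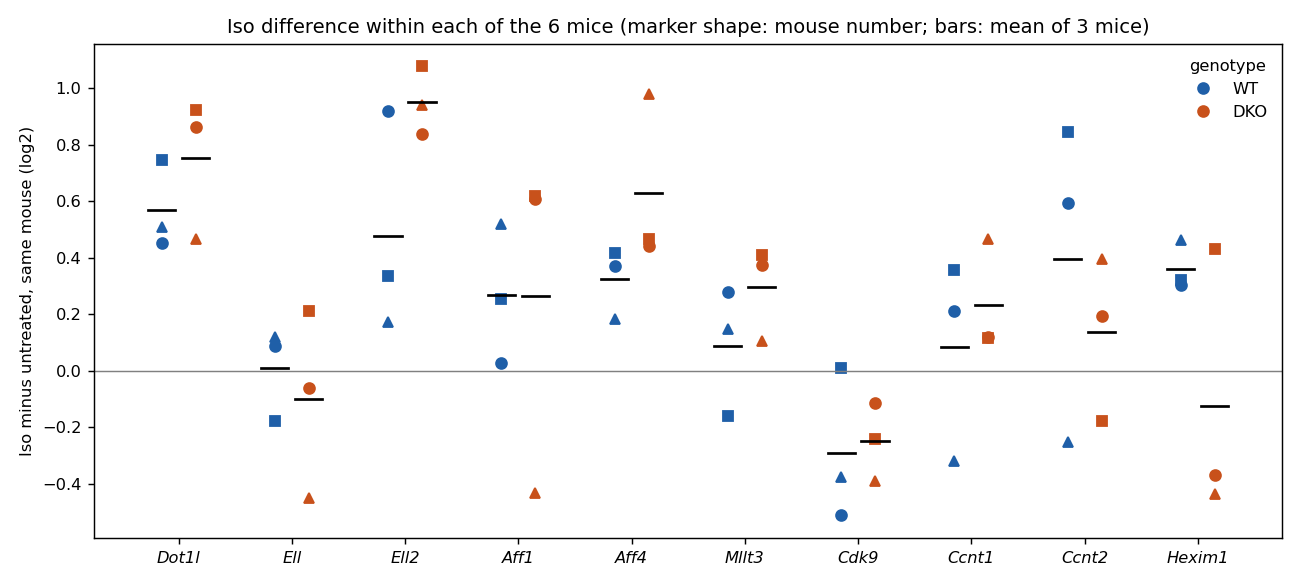
Iso-treated minus untreated log2 expression within each mouse (vertical axis) for the 10 genes (horizontal axis); blue points are the 3 WT mice, orange points the 3 DKO mice, marker shapes mouse numbers and black bars means of 3 mice. For Dot1l, Ell2 and Aff4 all 6 points lie above 0, from 0.17 to 1.08, whereas each of the other 7 genes has points on both sides.

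The 10 genes were then read together. With Iso, 9 of 10 lay above 0 in WT (median 0.30) and 7 of 10 in DKO (median 0.25), where 47.8% and 50.9% of all genes tested did and the medians of all genes were -0.01 and 0.01. In neither genotype alone did any of the 10 genes pass limma's test at an adjusted p under 0.05, which 0.0218% of all genes did in WT and 0.051% in DKO. Without untreated DKO array 3 the count in DKO was 1 of 10 (Dot1l, at 0.84, SE 0.14), where 0.226% of all genes then passed. At an unadjusted p under 0.05 there were 2 of the 10 in WT, against 6.7% of all genes, and 4 in DKO, against 18.4%. Averaged over both genotypes, the Iso differences of Dot1l and Ell2, 2 of the 10 genes, lay past the threshold, as did 0.124% of all genes (13 up and 4 down). There 8 of 10 lay above 0 (50.3% of all genes), and 5 had an unadjusted p under 0.05 (14.4%), 4 of them above 0 and 1, Cdk9, below. Over both genotypes treated arrays lay wholly above untreated arrays for 3 of the 10 genes, against 0.539% of all genes. Within WT this held for 4 (Dot1l, Ell2, Aff1 and Aff4; 7.16% of all genes) and within DKO for 4 (Dot1l, Ell2, Aff4 and Mllt3; 10.8%), with Cdk9 wholly below (10.7%). In each count that holds Cdk9 its direction was partly fixed by the filter. All 6 mice were higher for Dot1l, Ell2 and Aff4, against 3.49% of all genes. As the list was selected on these arrays, none of these counts tests the 10 genes, and nothing is read from the shares. With the mouse as a fixed block 0 of the 10 genes passed for the mean Iso effect, and with the mouse as a random block 2 did. Without a block 17 of all genes passed for this effect. The share of all genes under either block is not given here, so nothing is read from these counts either. The block also moved the number of all genes that passed for Iso in WT from 3 to 5 (random) and for the interaction from 2 to 5 (fixed). Leaving out untreated DKO array 1, any of the 3 Iso-treated DKO arrays, any of the 3 untreated WT arrays or Iso-treated WT array 2 ended the calls of both, and leaving out Iso-treated WT array 1 that of Ell2, while over 23 alternatives the mean Iso difference stayed between 0.60 and 0.71 for Dot1l and between 0.65 and 0.77 for Ell2.

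**Figure D3:**
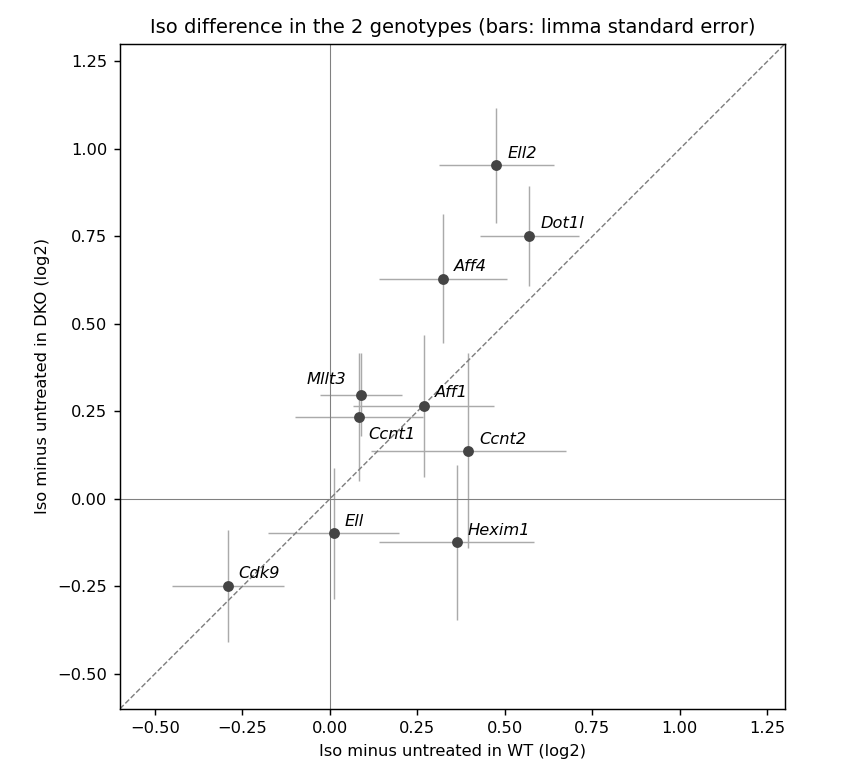
Iso minus untreated in WT (horizontal axis) against Iso minus untreated in DKO (vertical axis), both log2 with limma standard errors as bars, for the 10 genes; the dashed line marks equal differences. Ell2 (0.48 and 0.95), Dot1l (0.57 and 0.75) and Aff4 (0.32 and 0.63) lie farthest from the origin at the upper right and above the line, Hexim1 (0.36 and -0.12) below it.

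Signals of the cells themselves moved with treatment as well. The log2 of the summed signal of the 10 ventricular myocyte markers ran from 16.08 to 16.15 on the 6 untreated arrays and from 16.18 to 16.29 on the 6 treated arrays. With Iso 10 of 10 of these markers lay above 0 in WT and 9 of 10 in DKO (medians 0.08 and 0.15). The markers differed widely among themselves: the lowest and highest group differences were 0.04 and 0.57 (WT), and -0.09 and 0.87 (DKO). Within the 6 mice Ttn was higher by 0.44 to 0.94 and Ryr2 by 0.22 to 0.73, beside 0.45 to 0.92 for Dot1l. The small medians thus do not set all myocyte markers apart from the 10 genes. Of the endothelial markers 9 of 10 lay above 0 in WT (median 0.23) and 9 of 10 below 0 in DKO (median -0.25), the latter 7 of 10 (median -0.08) without untreated DKO array 3. Of the macrophage and leukocyte markers 8 of 8 tested lay below 0 in DKO (median -0.57), and 7 of 8 (median -0.49) without that array. Of the 4 atrial myocyte markers 3 lay above 0 in WT (median 1.03), where Sln differed by 3.29, 1.81 and -0.69 within mice. In DKO 1 of the 4 lay above 0 (median -0.36, and -0.16 without that array). Of the mesothelial markers 5 of 5 tested lay above 0 in WT (median 0.24) and 2 of 5 in DKO (median -0.16), the latter 1 of 5 (median -0.12) without that array. The part of all these markers in the differences of the 10 genes was not tested. In such bulk samples a change in the number of cells of a type cannot be told apart from a change in RNA per cell.

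Between genotypes, Ell2 had the largest difference of the 10 genes, lower in untreated DKO than in untreated WT by 0.53 on the log2 scale (-0.53, SE 0.16, a factor of 1.45). Without Iso 5 of 10 lay above 0 (48.1% of all genes; median 0.04, and 4 of 10 with a median of -0.05 without untreated DKO array 3) and with Iso 6 of 10 (50.9%; median 0.07), and none passed, where 0.204% and 0.306% of all genes did. At an unadjusted p under 0.05 stood 1 of 10 without Iso (13.8% of all genes) and 0 of 10 with Iso (7.91%). Without Iso the arrays did not overlap for Ell2 and Mllt3, both lower in DKO, which is 2 of 10 genes against 9.21% of all genes lower without overlap. As a mean over both treatments the 10 genes ran from -0.30 for Ell2 to 0.14 for Cdk9, with a median of 0.06; 8 of 10 lay above 0 (49.2% of all genes), 0 passed (0.546%) and 1 had an unadjusted p under 0.05 (10.7%). The count above 0 was 5 of 10, with a median of 0.01, without untreated DKO array 3. The interaction, the Iso difference in DKO minus that in WT, was highest for Ell2 (0.48, SE 0.23) and lowest for Hexim1 (-0.49, SE 0.31). Without untreated DKO array 3 Hexim1 stood at -0.26 (SE 0.27) and Ccnt2, at -0.42 (SE 0.39), was lowest. The interaction lay above 0 for 6 of 10 on all arrays (50.8% of all genes), and 0 of 10 passed, against 0.0146% of all genes, with 0 of 10 also at an unadjusted p under 0.05 (10.1%). These comparisons share their arrays with the Iso comparisons. Of the 4 atrial myocyte markers 4 lay below 0 as a mean over both treatments (median -1.14) and 3 without Iso, where Myl4 was higher in DKO (5.46 against 5.04 in WT). Leaving out untreated DKO array 3, 2 of the 4 lay below 0 without Iso. The log2 of their summed signal, in which Nppa was by far the brightest, ran from 11.74 to 13.04 on WT arrays and from 10.73 to 11.45 on DKO arrays. Untreated means in WT and DKO were 12.72 and 11.11 for Nppa, 5.10 and 4.60 for Sln, and 5.52 and 5.28 for Myl7. Of the endothelial markers 8 of 10 lay above 0 without Iso (median 0.38, and 0.21 without untreated DKO array 3). The part of these markers in the Ell2 values was not tested.

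Other genes of the elongation machinery, listed by function, were set beside the 10 genes. Of 74 such genes in 8 lists with a probe set, 68 were bright enough to be tested. For the mean Iso effect 41 of the 68 lay above 0 (median 0.04) and 0 passed limma's test, with 12 at an unadjusted p under 0.05, where 14.4% of all genes stood. None passed for Iso in WT or in DKO or for the interaction either, with 4, 18 and 10 at an unadjusted p under 0.05, against 6.7%, 18.4% and 10.1% of all genes. Immediate early genes and the dystrophin complex, which are no part of that machinery, were followed as 2 further lists, in which 0 of 14 and 0 of 8 passed for Iso, with 6 and 3 at an unadjusted p under 0.05 for the mean effect. Of the remaining members of the super and little elongation complexes 6 were tested, of which 3 lay above 0 for the mean Iso effect, with a median of -0.01 and a range of -0.21 to 0.20. Medians were 0.10 for 8 genes of the 7SK particle and P-TEFb release, 0.08 for 10 Dot1l partners and genes of H2B ubiquitination, -0.11 for 7 pausing factors, 0.10 for 12 genes of the PAF1 complex and histone chaperones, 0.02 for 6 genes of TFIIS and elongin, 0.09 for 8 kinases and phosphatases of the polymerase tail, -0.16 for 11 polymerase subunits, 0.03 for 14 immediate early genes and 0.20 for 8 genes of the dystrophin complex, beside 0.00 for all genes and 0.23 for the 10 genes.

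By genotype, the medians with Iso ranged from -0.13 (polymerase subunits) to 0.12 (immediate early genes) in WT and from -0.19 (polymerase subunits) to 0.43 (dystrophin complex) in DKO. Immediate early genes, which are released from pausing within minutes of a stimulus, had 11 of 14 above 0 in WT and 3 of 14 in DKO, but 7 of 14 in DKO without untreated DKO array 3. Of the dystrophin complex 4 of 8 lay above 0 in WT and 6 of 8 in DKO, where the median was 0.18 without that array. Over both treatments the medians of DKO minus WT ran from -0.10 (7SK particle) to 0.14 (dystrophin complex). No test of a list was made, and a median beside that of all genes does not set a list apart.

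**Figure D4:**
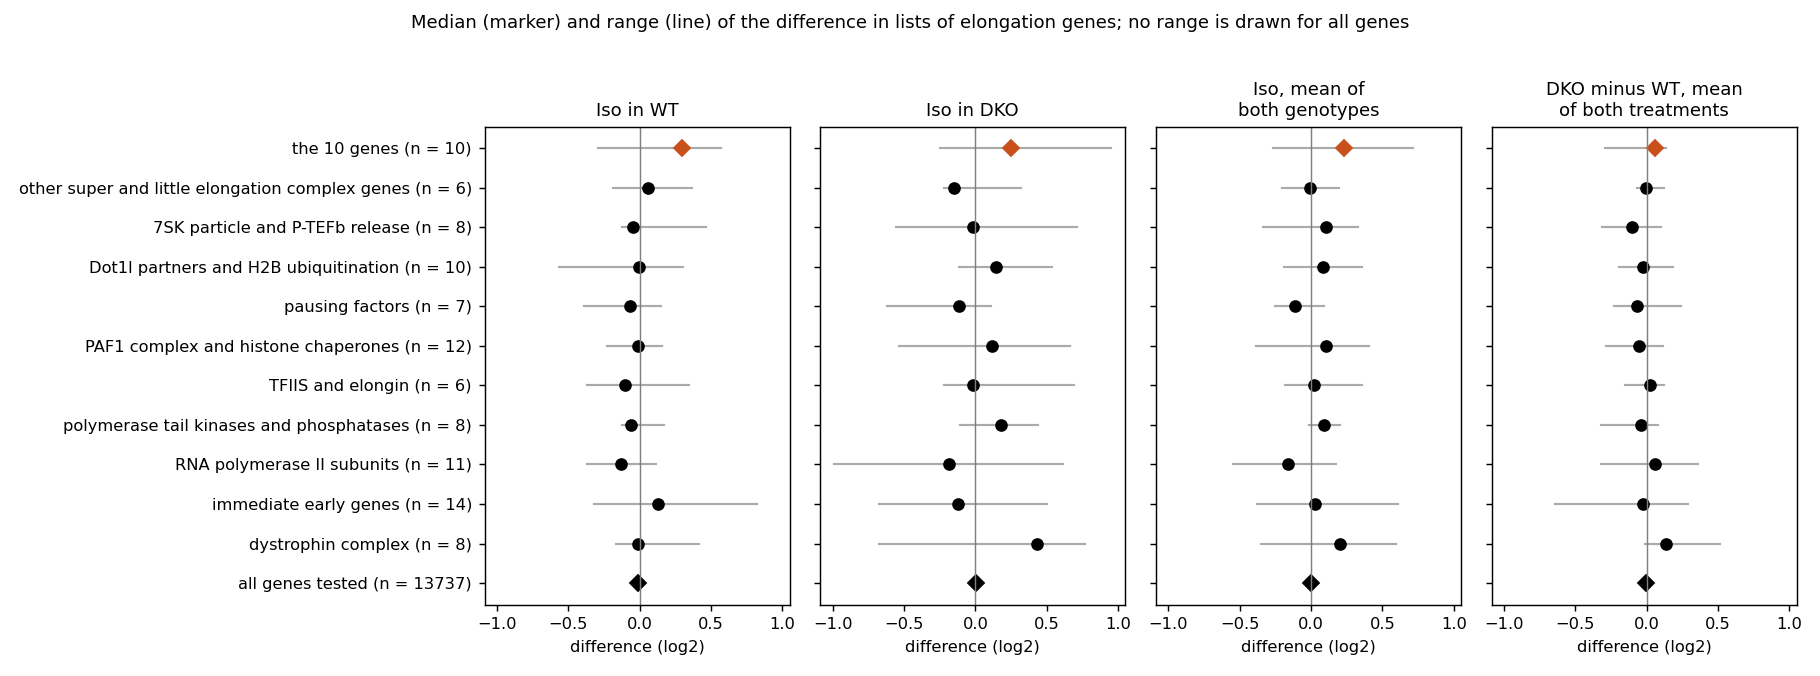
Median (markers) and range (lines) of log2 differences (horizontal axes) in the 10 genes (orange), in 10 lists of other elongation genes and related genes, and in all 13737 genes (median alone), for 4 comparisons. The 10 genes have the highest median in WT (0.30) and for the mean Iso effect (0.23), and the dystrophin complex the highest in DKO (0.43). As the 10 genes were selected on these arrays, nothing is read from their place among the lists.

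Single genes of these lists were named by a fixed rule. Dmd, which encodes dystrophin, stood in WT at 6.44, 6.68 and 6.57 untreated and 7.08, 6.95 and 6.91 under Iso, and in DKO at 7.29, 6.83 and 6.58 untreated and 7.60, 7.86 and 7.55 under Iso. It was higher with Iso in 6 of 6 mice, with a mean of 0.59 (SE 0.12), and did not pass (limma adjusted p = 0.0656). It passed without untreated DKO array 3 (0.51, SE 0.10, limma adjusted p = 0.0497), and so did its difference between genotypes over both treatments (0.59, SE 0.10, adjusted p = 0.0152, against 0.51, SE 0.12, adjusted p = 0.0955, on all arrays). Without that array more of all genes passed: 0.743% for the mean Iso effect (0.124% on all arrays) and 1.78% for the mean genotype effect (0.546%). Setd2, the enzyme that trimethylates lysine 36 of histone H3 behind the polymerase, differed with Iso by 0.66 (SE 0.13, adjusted p = 0.0615) in DKO and 0.15 (SE 0.13, adjusted p = 0.927) in WT. The dystrophin complex gene Sgca differed by -0.68 (SE 0.13, adjusted p = 0.0615) in DKO and by 0.52 (SE 0.13, adjusted p = 0.151) between genotypes without Iso.

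Nr4a1, an immediate early nuclear receptor gene, was lower in DKO as a mean over both treatments, from 8.04 to 7.40 (-0.64, SE 0.11, limma adjusted p = 0.0232), 1 of 75 genes that passed there. Its mean Iso difference was 0.61 (SE 0.11, adjusted p = 0.0613), higher in 6 of 6 mice, and passed without untreated DKO array 3 (0.66, SE 0.10, adjusted p = 0.0185), where 0.743% of all genes did. Polr2h, a polymerase subunit gene, was higher in DKO than in WT with Iso by 0.85 (SE 0.15, adjusted p = 0.0361), but its probe set lay above the array median only on the 3 Iso-treated DKO arrays, through which it entered the test. The direction of this difference was thus partly fixed by the filter, and its adjusted p does not allow for that. Ube2a and Ube2b encode paired enzymes for the ubiquitination of histone H2B, a mark that stimulates Dot1l. With Iso, Ube2a differed by -0.57 (SE 0.11, adjusted p = 0.224) in WT and 0.18 (SE 0.11, adjusted p = 0.373) in DKO, and Ube2b was lower in untreated DKO than in untreated WT by 0.45 on the log2 scale (-0.45, SE 0.11, adjusted p = 0.130). Neither gene passed.

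The genes whose levels over the 12 arrays were most like those of Dot1l were Zbtb20, a zinc finger repressor, Clip1, a microtubule tip protein, Mospd4, Smg1, a kinase of nonsense-mediated decay, and Ppargc1b, a coactivator of mitochondrial genes, with Pearson's r of 0.93, 0.93, 0.92, 0.91 and 0.91. For Ell2 they were Sltm, Setd2, Rbm39, a splicing factor, Mef2c, a transcription factor of muscle, and Ehbp1, with r of 0.94, 0.94, 0.94, 0.92 and 0.92. The arrays share group differences, and once group means were taken away r ran from 0.39 (Mospd4) to 0.85 (Clip1) for Dot1l and from 0.50 (Mef2c) to 0.87 (Setd2) for Ell2. All 10 were higher with Iso as a mean over both genotypes, by 0.36 (Ehbp1) to 0.63 (Ppargc1b). As these genes were chosen by likeness to Dot1l or Ell2 on the same arrays, this direction followed largely from the choice. Dot1l and Ell2 themselves had an r of 0.73, and -0.12 with group means taken away. Among the other genes of the list, those with the highest r were Aff4 for Dot1l (0.69, and -0.14 with group means taken away) and Mllt3 (0.82, and 0.34) and Aff4 (0.81, and 0.59) for Ell2. The lowest was Cdk9, at -0.58 with Dot1l and -0.59 with Ell2.

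**Figure D5:**
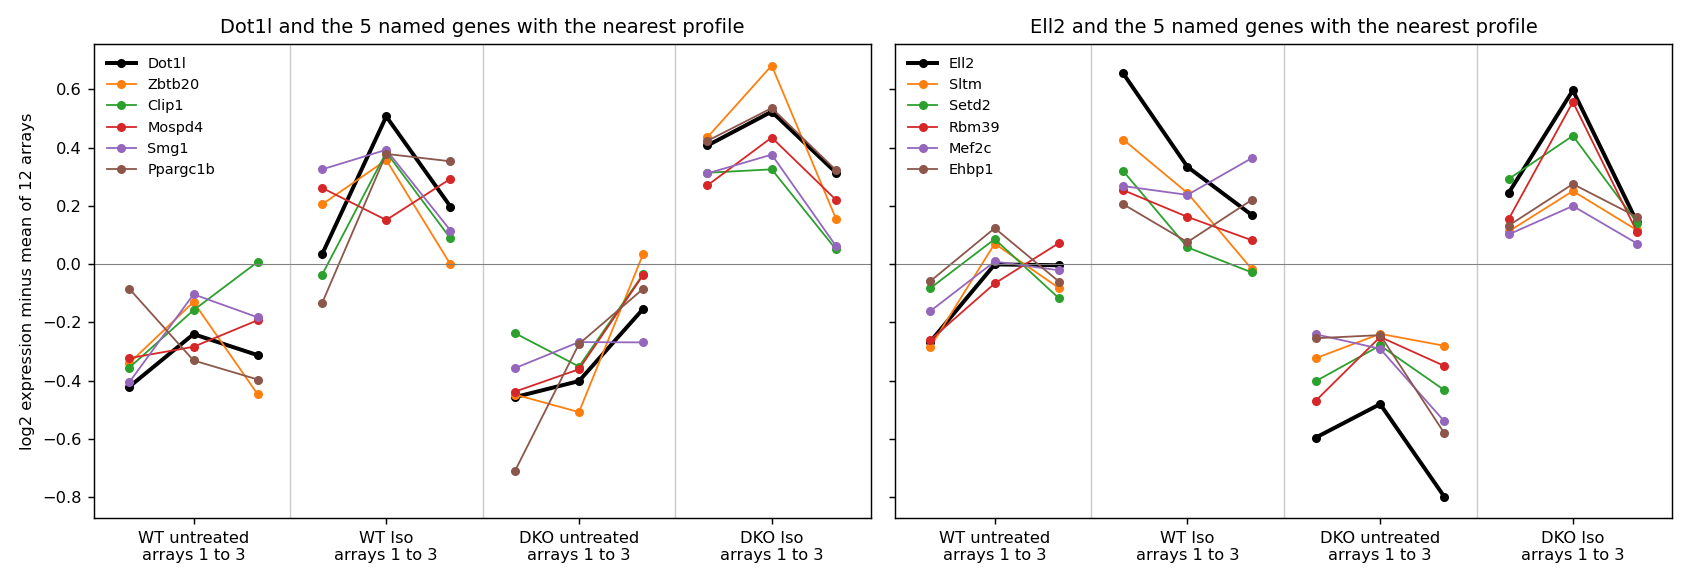
Log2 expression minus the mean of the 12 arrays (vertical axis) for Dot1l (left, black) and Ell2 (right, black) and the 5 named genes with the nearest profile (colours), by array within the 4 groups (horizontal axis); lines within a group only guide the eye. Every gene lies higher on most treated than untreated arrays, which the choice by nearest profile favours, and Ell2 itself is lowest on the 3 untreated DKO arrays.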

How the data were processed

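The deposited series matrix holds log2 RMA signals of 25428 probe sets on 12 arrays, RMA being named in the submitters' processing notes without a version. The sources used here do not name the build of the annotation. All arrays share 1 distribution of values, so a change in total RNA cannot be seen, and the number of arrays limits the precision. Probe sets were named through the platform annotation: 24705 have 1 symbol and 723 have none. A model with 1 mean per group was fitted to all 12 arrays (limma 3.58.1, R 4.3.3, eBayes) on the 13737 genes that lay above their array's median on at least 3 arrays. P-values were adjusted over all of them (Benjamini-Hochberg, threshold 0.05), and the fit was tested on simulated data.

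The untreated and treated arrays of 1 mouse are paired by the labels' mouse number. Their deviations from group means correlated at -0.06 to 0.13, and the consensus correlation was 0.03. P-values rest on 3 mice per genotype. Alternatives were the mouse as a block (random or fixed), array weights, other filters, scaling, moderation, fits on only the arrays compared, and each array left out.

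The 10 genes and the lists were chosen with earlier results of these data known. Of the other elongation genes, those past the threshold in a comparison (at most 5), otherwise the 2 with the smallest p, were named, with Dmd named in any case, and the 5 properly named genes nearest to Dot1l and to Ell2 by Pearson's r. Promoters come from RefSeq on GRCm38.p6, where 10 of the 10 genes matched by symbol. Each motif was searched on both strands, and each TGACGTCA holds 2 TGACG matches.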

Additional observations from a re-analysis of the deposited data

Results flagged for a closer look

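In 2 of 17 named genes checked, all 3 WT mice went one way with Iso and all 3 DKO mice the other, a pattern that 4.77% of the 13737 genes showed. Both had been named for the smallest p of the lists for the interaction. That choice favours the pattern, so nothing is read from the count beside the share. For Ube2a the difference with Iso was -0.49, -0.67 and -0.55 in WT mice and 0.19, 0.26 and 0.11 in DKO mice, and the interaction, DKO minus WT, was 0.75 (SE 0.15) and did not pass (limma adjusted p = 0.216). For Polr2h, whose signal lay above the array median only on the 3 Iso-treated DKO arrays, the interaction was 0.98 (SE 0.21) and did not pass either (limma adjusted p = 0.236). The direction for Polr2h was partly fixed by the filter.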

How the results depend on the processing

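Of 1550 differences of the 10 genes under the alternatives, 1543 moved by less than the spread between replicates, and the 7 others were those of Aff1 and Aff4. Filters, moderation and the mouse as a block leave a difference of group means unchanged. So does leaving out an array of a group that is not compared. The count of 1543 was thus largely fixed in advance and does not measure how stable the differences are. Array weights raised the number of all genes that passed to 581 for the mean Iso effect, 475 for the mean genotype effect, 51 for the interaction, 6 in WT and 1109 in DKO for Iso, and 698 (untreated) and 164 (under Iso) for DKO minus WT. With these weights 4 of the 10 genes passed for Iso in DKO and 4 for the mean Iso effect. The weighted medians of the 10 genes were 0.19 for the interaction, -0.13 for DKO minus WT without Iso and 0.34 for Iso in DKO, and for Iso in DKO they were 0.13 for the 7SK list and -0.043 for the other super elongation complex genes. With a trended and robust moderation 5 genes passed for Iso in WT and 10 for the mean Iso effect, 0 of them among the 10 genes. Without a filter on dim probe sets 17 passed for Iso in DKO and 18 for DKO minus WT without Iso. Fits on only the arrays compared called 0 for Iso in DKO, 6 for Iso in WT, and 2 (untreated) and 77 (under Iso) for DKO minus WT. The replicate block by mouse gave 5 for Iso in WT as a random block, and as a fixed block 5 for the interaction. As a fixed block it also gave 0 of the 10 genes for the mean Iso effect, without a share of all genes given beside it. Without untreated DKO array 3 and with the random block, an alternative chosen after seeing the data, 1 of the 10 genes passed for Iso in DKO. All genes were not counted under that alternative, so nothing is read from this count. The cause of these shifts was not tested. Leaving out each array in turn gave 2 to 102 genes for the mean Iso effect, 31 to 244 for the mean genotype effect, 2 to 16 for the interaction, 2 to 8 in WT and 0 to 605 in DKO for Iso, and 7 to 180 (untreated) and 10 to 163 (under Iso) for DKO minus WT. Of the 10 genes 0 to 3 passed for Iso in DKO and 0 to 2 for the mean Iso effect. The count for Iso in DKO was 3 without untreated DKO array 2, where 605 of the 13737 genes passed. It was 1 without array 3, where 31 genes passed. Medians of the 10 genes ran from 0.14 to 0.31 for Iso in DKO, 0.19 to 0.31 in WT and -0.046 to 0.13 for DKO minus WT without Iso. For Iso in WT list medians ran from -0.023 to 0.083 (Dot1l partners), -0.038 to 0.067 (PAF1 complex), -0.23 to -0.042 (polymerase subunits), -0.12 to 0.037 (pausing factors) and -0.059 to 0.035 (tail kinases). For Iso in DKO they ran from -0.16 to 0.15 (7SK particle), -0.30 to -0.039 (polymerase subunits), -0.15 to 0.072 (TFIIS and elongin), 0.18 to 0.55 (dystrophin complex), -0.19 to -0.040 (other super elongation complex genes) and 0.093 to 0.30 (tail kinases), and for the mean Iso effect from 0.028 to 0.15 (PAF1 complex). Signal near the array median limits the values of Cdk9 and Polr2h.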
